A study of Mus musculus with 36 samples.

Results

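The genes described here are 3 secreted lipases of the lipoprotein lipase type and 6 genes whose products control them: lipoprotein lipase (Lpl), hepatic lipase (Lipc), endothelial lipase (Lipg), the angiopoietin-like proteins Angptl4 and Angptl8, the apolipoproteins Apoc3 and Apoa5, the lipase-binding protein Gpihbp1 and lipase maturation factor 1 (Lmf1). They were chosen by gene name, and every array probe that carries one of the names was taken. This gave 9 genes and 19 probes, of 37008 gene names on the array and 22892 genes tested. Angptl8 carries the older name Gm6484 in the files.

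The samples were livers of 36 male mice aged 11 weeks, in 6 groups of genotype and time with 6 mice each and 1 array per mouse. The insulin receptor gene Insr was deleted in hepatocytes of one genotype: loxP sites flank the fourth exon (IRlox/lox), and Cre recombinase that is activated by tamoxifen is expressed in liver from the transthyretin promoter (TTR-CreTam), in a cross with C57BL/6J mice. These mice (IRLKO in the labels) are called knockouts, and mice with intact Insr (IRLWT) are called controls. The labels record no treatment, and give neither the timing of tamoxifen nor the Cre status of the controls. All had free access to standard chow, with lights on at Zeitgeber time (ZT) 0 and off at ZT12. Livers were taken at ZT8, late in the light phase, at ZT12, and at ZT16, in the dark phase when mice eat most.

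Lipases of this family split triglycerides and phospholipids of circulating lipoproteins at the vessel wall. Lpl is made mainly by fat, heart and muscle, matures with the help of Lmf1 in the endoplasmic reticulum, and is carried to the capillary surface by Gpihbp1. Liver of an adult mouse makes Lipc and secretes most of the circulating regulators, among them Angptl8, Apoc3 and Apoa5, and Lpl is normally low in it.

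Each array read total liver RNA labelled with Cy3, and a level below is the log2 of a probe's fluorescence intensity relative to the 75th percentile of its array, so 0 is that percentile. Levels are compared only within a probe, because probes differ in brightness. Where a gene has several probes, the one that is brightest on average stands for it. "Called" means an adjusted p under 0.05 in limma, with Benjamini-Hochberg adjustment over all 22892 genes (over all 34678 probes where single probes are discussed). In whole liver, fewer cells of a type and less RNA per cell cannot be told apart. The limma tests use a common spread for each gene, estimated between mice within all 6 groups with wash batch taken out. That spread is also drawn towards the spread of other genes, so it is not that of the compared groups alone. Exact permutation tests use only the arrays compared.

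The sequences of 4 probes show part of what was read for genes that differed at every time. Each holds 1 or 2 reading frames free of stop codons, and its position is that of the files on build mm9. Only the Lipc probe is the one that stands for its gene. The printed Lpl, Apoc3 and Lmf1 probes are further probes of these genes, with ratios given separately below. The Lpl probe A_52_P257812 is at chr8:71425050-71425109 (plus strand), the Apoc3 probe A_51_P310629 at chr9:46041353-46041412 (minus strand) and the Lmf1 probe A_55_P2177988 at chr17:25722737-25722796 (plus strand). The Lipc probe A_51_P263993 is mapped from 70660699 to 70664375 of chromosome 9 (minus strand), a span longer than its 60 bases.
Lpl: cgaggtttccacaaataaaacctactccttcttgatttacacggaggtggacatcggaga
Lipc: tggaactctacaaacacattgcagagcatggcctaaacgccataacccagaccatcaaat
Apoc3: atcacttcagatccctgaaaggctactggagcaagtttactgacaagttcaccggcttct
Lmf1: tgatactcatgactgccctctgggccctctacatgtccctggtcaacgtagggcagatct
No sequence runs longer than 9 bases were shared between 17 of the member probes and a probe of another member, although the lipases are relatives.

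Upstream sequence of 4 of the 9 genes was taken from the promoter table from RefSeq (GRCm38.p6): Angptl8, Apoa5, Lipc and Lmf1, with 6 start sites. Lpl, Lipg, Angptl4, Apoc3 and Gpihbp1 are named only, Lipg because it was left out of the search. The 250 bases before each start were searched on both strands for AGGTCA (a nuclear receptor site), GTAAACA (a FoxO core) and CACGTG (an E-box). Neighbouring matches can share their end letters. AGGTCA was found before 1 of the 6 starts, CACGTG before 2 (both of Apoa5, whose windows overlap) and GTAAACA before 0. Among all 32851 promoters, 14% held the nuclear receptor site, 6.02% the E-box and 3.17% the FoxO core. Angptl8 was lower in knockouts at each time, and the sequence before its start (chr9:21835260-21835509, plus strand) held none of the 3 motifs. A start of Lipc (chr9:70934809-70935058, minus strand) held 2 copies of AGGTCA, in capitals below, the second on the other strand.
Angptl8: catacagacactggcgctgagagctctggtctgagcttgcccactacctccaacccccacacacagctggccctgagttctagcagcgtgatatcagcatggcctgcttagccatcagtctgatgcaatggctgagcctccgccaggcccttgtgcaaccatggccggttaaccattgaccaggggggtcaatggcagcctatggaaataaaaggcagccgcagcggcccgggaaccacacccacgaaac
Lipc: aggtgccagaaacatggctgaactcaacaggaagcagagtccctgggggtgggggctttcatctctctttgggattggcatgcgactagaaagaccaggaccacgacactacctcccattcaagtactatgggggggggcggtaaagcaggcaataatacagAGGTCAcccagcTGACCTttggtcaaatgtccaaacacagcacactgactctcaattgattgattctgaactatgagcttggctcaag
These matches are descriptions of letters and not of binding.

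The targeted gene followed the labels. Insr was lower in knockouts by 1.77, 1.88 and 1.65 on the log2 scale at ZT8, ZT12 and ZT16, and no knockout array reached the lowest control array. Between 53.7% and 63.1% of spots were well above background on each array, the 75th percentile signal was 311 to 525 intensity units and 0 spots were saturated. Hepatocyte markers were abundant, and the summed level of 7 markers was lower in knockouts. In multiples of the 75th percentile of the array, it was 2833 to 3282 in controls and 1726 to 2698 in knockouts at ZT8. At ZT12 it was 3150 to 3384 and 2211 to 2768, and at ZT16 3135 to 3522 and 2241 to 2737, without overlap at any time. Of the 7 markers, 3 were called lower at each time and 1 was called higher at ZT12. Of all genes tested, 18.7%, 22.7% and 20.0% were called lower at ZT8, ZT12 and ZT16. The part of this shift in the falls of members made by hepatocytes, such as Lipc and Apoc3, was not tested. The lowest of these sums came from replicate 3 of the knockouts at ZT8, which was also the lowest array of its group for 5 of the 9 members (Lipc, Lipg, Angptl4, Apoc3 and Apoa5). Results at ZT8 that change without it are given both ways.

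Deletion of the hepatocyte insulin receptor was accompanied by higher liver Lpl and by lower Angptl8, Lipg, Lipc, Lmf1 and Apoc3 at all 3 times. Of the 9 members, 6 were called at ZT8 (1 higher, 5 lower), 7 at ZT12 (2 higher, 5 lower) and 7 at ZT16 (2 higher, 5 lower). Of all genes tested, 35.5%, 42.3% and 40.0% were called in the same comparisons, with 16.7%, 19.6% and 20.0% higher and 18.7%, 22.7% and 20.0% lower. The Lipg probe was well above background on 16 of 18 control and 4 of 18 knockout arrays, so it passed the filter mainly through controls; without Lipg, 5, 6 and 6 of 8 members were called. The 6 members called at every time kept 1 direction each, against 19.5% of all genes that did so. The median log2 ratio over the 9 members was -0.35, -0.46 and -0.75, and over all genes 0.01, -0.02 and 0.00. Without replicate 3 of the knockouts at ZT8, 7 members were called at ZT8, with Lipg lost and Angptl4 and Apoa5 gained. Within each of the 3 wash batches named in the labels, Angptl8, Lipc, Lmf1 and Apoc3 were lower in knockouts at every time and Lpl was higher.

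**Figure D1:**
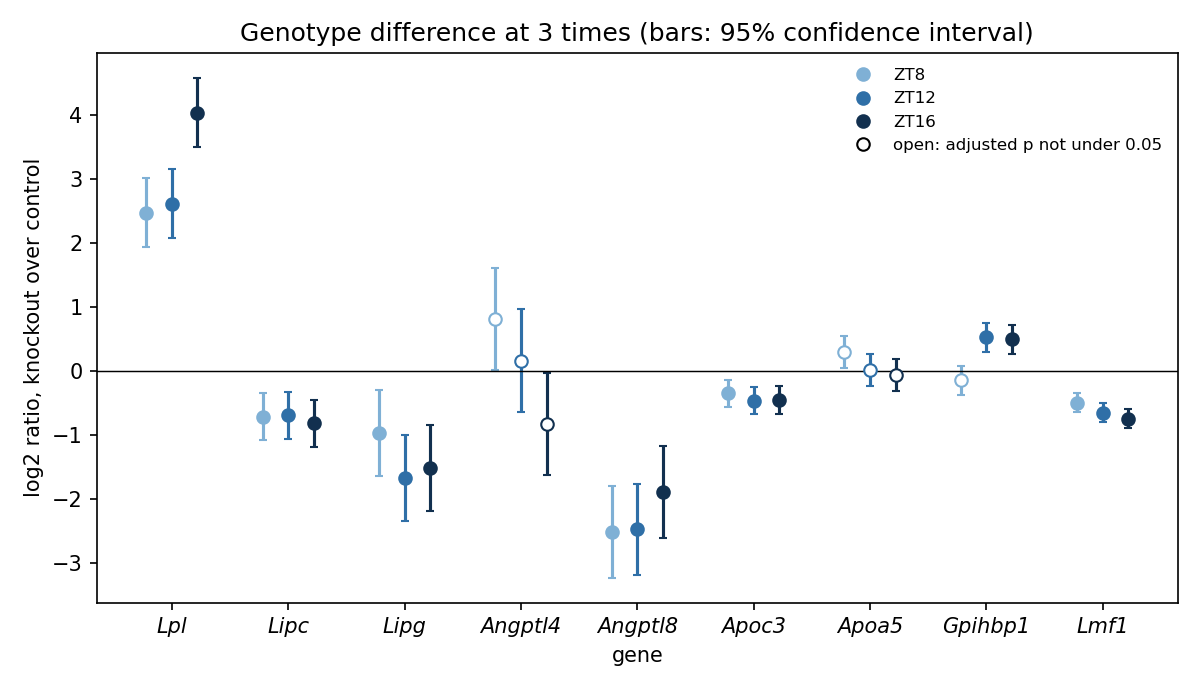
Log2 ratio of knockout over control (vertical axis) for the 9 genes at ZT8, ZT12 and ZT16 (light to dark), with 95% confidence intervals; filled points had an adjusted p under 0.05 in limma. Lpl lies between 2.47 and 4.04 above 0, while Angptl8, Lipg, Lipc, Lmf1 and Apoc3 lie below 0 at each time.

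Among the lipases, Lpl, the enzyme that clears triglyceride from chylomicrons and very low density lipoproteins, was higher in knockouts at each time. At ZT8 its level was -0.12 to 0.80 (median 0.50) in controls and 2.55 to 3.28 (median 2.80) in knockouts. At ZT12 it was -0.94 to 1.28 (median 0.29) in controls and 2.47 to 3.66 (median 2.74) in knockouts. At ZT16 controls had -1.28 to 0.09 (median -0.77) and knockouts 2.98 to 3.89 (median 3.36). The lowest knockout array was above the highest control array at every time, and all 18 knockout arrays were above all 18 control arrays.

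The fitted Lpl difference was 2.47 ± 0.26 (SE) at ZT8 (adjusted p = 1.36e-08), 2.61 ± 0.26 at ZT12 (3.69e-09) and 4.04 ± 0.26 at ZT16 (4.98e-13), which are 5.54-fold, 6.12-fold and 16.4-fold. Within the 3 wash batches the ratio at ZT16 was 3.65 to 4.56. The difference grew from ZT8 to ZT16 by 1.57 ± 0.38 (adjusted p = 0.0061), and the F test of the genotype effect over the 3 times gave 0.0087. In controls Lpl fell by 1.13 from ZT8 to ZT16 (adjusted p = 0.0016), and the change in knockouts was 0.44 ± 0.26 (0.24).

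Lpl is read by 6 probes, and their ratios differed. The other 2 probes designed to the reference message (NM_008509) gave log2 ratios of 2.31, 2.62 and 4.22 (A_52_P257812) and of 2.08, 2.29 and 3.34 (A_66_P123790) at ZT8, ZT12 and ZT16 (adjusted p over all probes at most 7.09e-07). A_66_P123790 was well above background on 2, 1 and 0 of 6 control arrays at the 3 times and on every knockout array, so at ZT16 its signal was at least 6.21-fold higher in knockouts. Here a fold of this kind sets the mean of the brighter group against the lowest signal well above background on each array of the dimmer group. The probe of ENSMUST00000101463 (A_55_P2715720) had ratios of 0.04, 0.04 and 0.36, with adjusted p over all probes of 0.870, 0.834 and 0.043, and its groups overlapped at each time.

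A pair of probes nearer the start of the gene, designed to the cDNA clones AK154419 (A_55_P2900592) and AK170106 (A_55_P2738847), were higher in knockouts too and rose from ZT8 to ZT16 in them. The AK154419 probe was dim at ZT8, well above background on 2 of 6 control and 4 of 6 knockout arrays, so its values there are inexact. The AK170106 probe read -3.53 to -1.98 in knockouts at ZT8, -1.94 to 0.20 at ZT12 and -0.33 to 0.54 at ZT16. Its knockout values at ZT16 were all above those at ZT8, a rise of 3.00 ± 0.34 (adjusted p over all probes 5.42e-08), and the rise of the AK154419 probe was 3.17 ± 0.41 (6.34e-07). In controls the AK154419 probe rose by 1.35 ± 0.41 (0.014), and the change of the AK170106 probe was 0.64 ± 0.34 (0.17). The genotype ratios of the AK170106 probe were 1.12, 2.12 and 3.48, and those of the AK154419 probe 1.58, 2.37 and 3.40.

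The difference in time course was tested within arrays, as the level of each probe minus that of the representing probe A_51_P259296. From ZT8 to ZT16 this difference rose by 1.81 in controls and 2.52 in knockouts for the AK170106 probe, and by 2.48 and 2.72 for the AK154419 probe. In each of these 4 cases the 6 ZT16 arrays did not overlap the 6 ZT8 arrays (exact two-sided permutation p = 0.00216, the smallest that 6 against 6 arrays allow; 0.00541 after adjustment over 10 tests). The probe of the reference message A_52_P257812 moved by -0.01 in controls (exact p = 0.846, adjusted 0.846) and 0.32 in knockouts (exact p = 0.00433, adjusted 0.00722). Another, A_66_P123790, moved by 0.61 in controls (exact p = 0.0584, adjusted 0.0731) and 0.37 in knockouts (exact p = 0.00649, adjusted 0.00928). The ENSMUST00000101463 probe moved by 1.05 in controls (exact p = 0.00433, adjusted 0.00722) and -0.25 in knockouts (exact p = 0.273, adjusted 0.303). This comparison was set up after the levels had been seen. Which exon or intron the clone probes lie in was not determined here, since the annotation at hand is of another build.

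**Figure D2:**
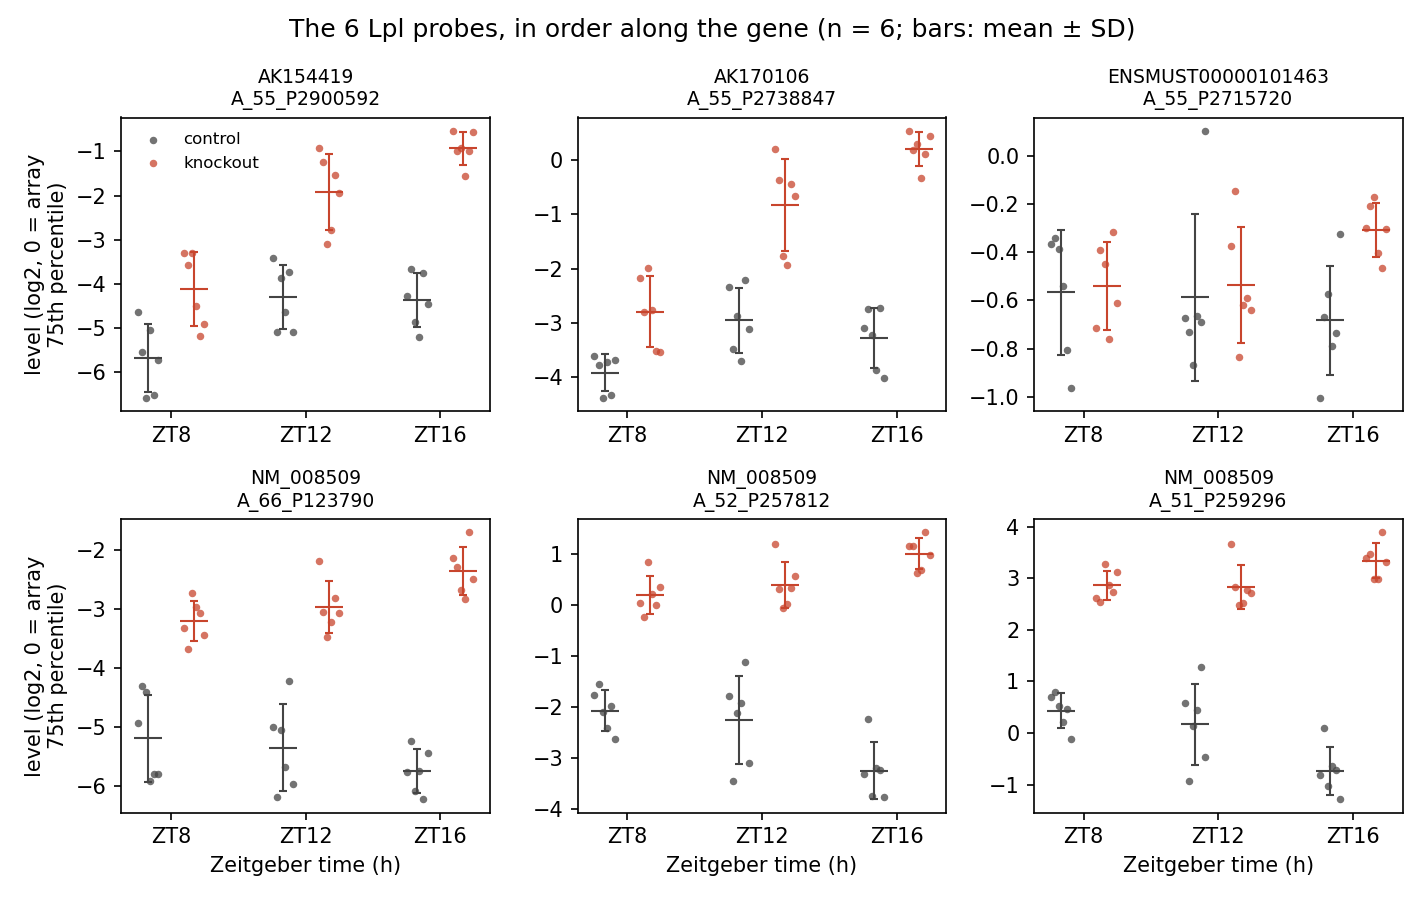
Level (log2, 0 = 75th percentile of the array) of the 6 Lpl probes on each array by time, controls in grey and knockouts in red, with mean and SD of 6 arrays; panels follow the order of the probes along the gene. The pair of clone probes rises with time in knockouts (AK170106 mean -2.80 at ZT8 and 0.21 at ZT16), the AK154419 probe also in controls (mean -5.68 at ZT8 and -4.38 at ZT16), the 3 NM_008509 probes are high in knockouts at all times, and the ENSMUST00000101463 probe shows overlapping groups.

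Lipc, the lipase that hepatocytes release to act on remnants and high density lipoproteins, was lower in knockouts at each time. Its level at ZT12 was -0.06 to 0.47 (median 0.14) in controls and -0.91 to -0.13 (median -0.29) in knockouts. The differences were -0.72 ± 0.18 at ZT8 (adjusted p = 0.0025), -0.69 ± 0.18 at ZT12 (0.0027) and -0.82 ± 0.18 at ZT16 (6.0e-04). The groups did not overlap at ZT8 and ZT12, and at ZT16 they did, with knockout arrays up to 0.24 and control arrays down to -0.03. Without replicate 3 of the knockouts, which read -1.14, the ZT8 difference was -0.53 (adjusted p = 0.0104).

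Lipg, the phospholipase of endothelium and hepatocytes that acts on high density lipoproteins, was dim. Its representing probe was well above background on 5, 6 and 5 of 6 control arrays and on 2, 1 and 1 of 6 knockout arrays at ZT8, ZT12 and ZT16. At ZT12 controls read -4.30 to -3.59 (median -3.88) and knockouts -6.25 to -4.73 (median -5.50), without overlap. The differences were -0.96 ± 0.33 (adjusted p = 0.022), -1.67 ± 0.33 (1.4e-04) and -1.52 ± 0.33 (4.6e-04), and are inexact where knockout arrays were near background. With normexp background correction they were -0.26, -0.45 and -0.43, and in the authors' deposited table -0.37, -0.54 and -0.51.

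The other Lipg probe (A_52_P344424) gave -1.62, -2.08 and -2.06. At ZT12 it was well above background on 6 of 6 control and 0 of 6 knockout arrays, at least 1.74-fold lower in knockouts. The call of the first probe at ZT8 was lost with normexp background correction (adjusted p = 0.055), with array weights, with only the groups compared, and without knockout replicate 3 or 4 or control replicate 5 or 6 of ZT8 (-0.64 to -0.89, adjusted p 0.051 to 0.095). Within wash batches the ZT8 ratio was -1.40 to -0.04.

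Of the 2 angiopoietin-like proteins, Angptl8 was lower and Angptl4 was not called. Angptl8 is a small protein of liver and fat that takes part in blocking Lpl. At ZT8 its level was 5.63 to 7.17 (median 6.48) in controls and 3.71 to 3.95 (median 3.84) in knockouts. At ZT12 controls had 5.25 to 7.10 (mean 6.61) and knockouts 3.74 to 4.79 (median 4.10), and at ZT16 controls had 5.25 to 7.52 (median 7.08) and knockouts 3.99 to 5.58 (median 5.19). Groups were apart at ZT8 and ZT12 and overlapped at ZT16, where the lowest control array read 5.25.

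The Angptl8 differences were -2.51 ± 0.35 (adjusted p = 1.39e-06), -2.48 ± 0.35 (1.33e-06) and -1.90 ± 0.35 (7.1e-05), which is 5.70-fold lower at ZT8 and 3.72-fold lower at ZT16. In knockouts Angptl8 rose by 1.02 ± 0.35 from ZT8 to ZT16 (adjusted p = 0.027), and the ZT16 arrays lay above all ZT8 arrays. That rise was not called without knockout replicate 1, 2 or 3 of ZT16 or replicate 5 of ZT8 (0.87 to 0.96, adjusted p 0.056 to 0.078). In controls the change was 0.41 ± 0.35 (0.44), and the genotype effect at ZT16 minus that at ZT8 was 0.62 ± 0.50 (0.52).

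Angptl4, which unfolds Lpl and is a fasting and PPAR-responsive gene, was not called by genotype and fell with time in knockouts. Controls read 4.90 to 6.09 (median 5.77) at ZT8, 4.31 to 5.83 (median 5.24) at ZT12 and 5.09 to 5.88 (median 5.51) at ZT16. Knockouts read 5.05 to 7.19 (median 6.51) at ZT8, 4.13 to 6.05 (median 5.35) at ZT12 and 2.54 to 6.07 (median 4.73) at ZT16. The groups overlapped at every time, and the knockouts spread widely at ZT16 (SD 1.16, against 0.28 in controls).

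Genotype differences of Angptl4 were 0.81 ± 0.39 at ZT8 (adjusted p = 0.106), 0.16 ± 0.39 at ZT12 (0.769) and -0.83 ± 0.39 at ZT16 (0.090). In knockouts it fell by 1.76 ± 0.39 from ZT8 to ZT16 (adjusted p = 8.0e-04), and in controls the change was -0.12 ± 0.39 (0.88). The difference between these changes was -1.65 ± 0.56 (adjusted p = 0.056) and -1.92 (0.017) without knockout replicate 3 of ZT8. Without that array the ZT8 genotype difference was 1.06 (0.036), and without knockout replicate 4 of ZT16 the ZT16 difference was -1.12 (0.025). Without knockout replicate 6 of ZT16 it was -0.47 (0.294). Replicate 6 of the knockouts at ZT16, the lowest Angptl4 array, also had the highest summed level of 7 adipocyte markers (10.6, against 2.89 to 6.12 on the other arrays). Of these markers Adipoq was well above background on 9 of 36 arrays, and a part of fat in that value was not tested.

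Apoc3, an apolipoprotein that slows lipolysis and remnant uptake, was slightly lower in knockouts. It read 9.37 to 9.60 (median 9.43) in controls and 8.52 to 9.40 (median 9.15) in knockouts at ZT8, and 9.52 to 9.90 (median 9.57) against 9.09 to 9.26 (median 9.18) at ZT16. The differences were -0.35 ± 0.11 (adjusted p = 0.0097), -0.46 ± 0.11 (6.9e-04) and -0.45 ± 0.11 (0.0010), and groups overlapped only at ZT8. Without knockout replicate 3, which read 8.52, the ZT8 difference was -0.22 (adjusted p = 0.038). Quantile normalization gave -0.23 at ZT8 and -0.27 at ZT16, both called. With only the groups compared in the fit, ZT8 was not called (adjusted p = 0.103). The printed probe A_51_P310629 gave -0.47, -0.53 and -0.64, each called and without overlap. The probe of another variant (NM_001289756, A_55_P2013710) gave -0.31, -0.33 and -0.10 and was not called at any time (adjusted p over all probes 0.135 to 0.696).

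Apoa5, which helps Lpl act on bound lipoproteins, was not called by genotype. Its differences were 0.29 ± 0.12 at ZT8 (adjusted p = 0.064), 0.02 ± 0.12 at ZT12 (0.926) and -0.06 ± 0.12 at ZT16 (0.737). At ZT8 controls read 8.15 to 8.48 (median 8.39) and knockouts 7.99 to 8.92 (median 8.76). The lowest of these was knockout replicate 3, without which the ZT8 difference was 0.43 (adjusted p = 0.0015). Quantile normalization (0.28, 0.016), array weights (0.40, 0.0014) and the authors' deposited table (0.29, 0.011) also moved ZT8 past the threshold. In controls Apoa5 rose by 0.49 ± 0.12 from ZT8 to ZT12 (adjusted p = 0.0054) without overlap of the groups, and its other probe rose by 0.52 ± 0.14 (0.012).

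Gpihbp1, the protein of capillary endothelium that holds Lpl, was higher in knockouts at ZT12 and ZT16 and not called at ZT8. Controls read 2.46 to 2.75 (median 2.61) at ZT8, 1.63 to 2.32 (median 2.12) at ZT12 and 1.96 to 2.36 (median 2.14) at ZT16. Knockouts read 2.16 to 2.78 (median 2.48), 2.40 to 2.79 (median 2.55) and 2.52 to 2.89 (median 2.58). Control levels were lower after ZT8, and the genotypes were apart at ZT12 and ZT16.

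The Gpihbp1 differences were -0.14 ± 0.11 (adjusted p = 0.33), 0.53 ± 0.11 (3.0e-04) and 0.49 ± 0.11 (6.8e-04). In controls it fell by 0.53 ± 0.11 from ZT8 to ZT12 (adjusted p = 9.8e-04) and by 0.46 ± 0.11 from ZT8 to ZT16 (0.0020). In knockouts the changes were 0.14 ± 0.11 (0.50) and 0.18 ± 0.11 (0.26). The genotype effect at ZT16 exceeded that at ZT8 by 0.64 ± 0.16 (adjusted p = 0.0077), and the F test over 3 times gave 0.0066.

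Markers of endothelial cells were also higher in knockouts at ZT12 and ZT16. Of all genes tested, 16.7%, 19.6% and 20.0% were called higher in knockouts at ZT8, ZT12 and ZT16. Of 10 endothelial markers, 0 were called at ZT8, 8 at ZT12 and 7 at ZT16, all of them higher in knockouts. Among them Kdr, the vascular endothelial growth factor receptor, had ratios of 0.15, 0.57 and 0.50, and Stab2, a scavenger receptor of sinusoidal endothelium, -0.03, 0.45 and 0.40. The summed level of the 10 markers was 27.5 to 34.6 in controls and 35.6 to 51.0 in knockouts at ZT12, and 29.4 to 44.2 against 39.5 to 49.7 at ZT16. The time courses differed, however. From ZT8 to ZT16, 7 of the 10 markers were called in knockouts and 1 in controls, all higher, against 28.9% and 26.6% of all genes. Their median log2 change was 0.53 in knockouts and 0.06 in controls. Gpihbp1 changed by 0.18 in knockouts (not called) and by -0.46 in controls (called). With the mean marker level of each array subtracted, Gpihbp1 differed by -0.15 at ZT8, -0.04 (ZT12) and 0.10 (ZT16), with exact two-sided permutation p of 0.0736, 0.654 and 0.303, or 0.110, 0.654 and 0.364 adjusted over 6 tests. Relative to endothelial markers the groups of Gpihbp1 overlapped at every time. The mean of this relative level was 2.24 in controls and 2.10 in knockouts at ZT8, and 1.67 and 1.76 at ZT16. This scaling was chosen after the data were seen, and a part of endothelial cell content in the Gpihbp1 difference was not tested.

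Of 10 macrophage and Kupffer cell markers, 2, 5 and 3 were called at ZT8, ZT12 and ZT16, all higher in knockouts, beside 35.5%, 42.3% and 40.0% of all genes called in either direction. Their summed level was 62.1 to 134 in controls and 79.2 to 333 in knockouts at ZT8, 46.9 to 152 and 105 to 282 at ZT12, and 55.6 to 199 and 114 to 395 at ZT16. Macrophages also make Lpl. With the mean of these markers subtracted, the Lpl difference was 1.67, 1.77 and 3.32 at the 3 times. The groups did not overlap (exact two-sided permutation p = 0.00216 each, adjusted 0.00433). This scaling was also chosen after the data were seen. The marker mean itself differed by 0.76, 0.88 and 0.76, and the Lpl groups had not overlapped before it was subtracted. The subtraction therefore cannot measure how much of the Lpl signal comes from macrophages. Adipocyte markers, of another cell type rich in Lpl, were called in 1, 3 and 2 of 7 cases, and 0, 1 and 1 of these were higher in knockouts. Their summed level was 2.93 to 4.27 in controls and 3.11 to 4.72 in knockouts at ZT8. At ZT12 it was 2.89 to 3.75 and 3.55 to 6.12, and at ZT16 3.48 to 4.62 and 4.56 to 10.6. Stellate cell and fibroblast markers were called in 0, 4 and 4 of 8 cases, all higher. Their summed level was 45.9 to 64.8 in controls and 41.0 to 106 in knockouts at ZT8. It was 37.2 to 65.7 and 70.1 to 80.2 at ZT12, without overlap, and 48.3 to 83.4 and 69.4 to 94.6 at ZT16. The share of any of these cell types in the results was not tested.

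**Figure D3:**
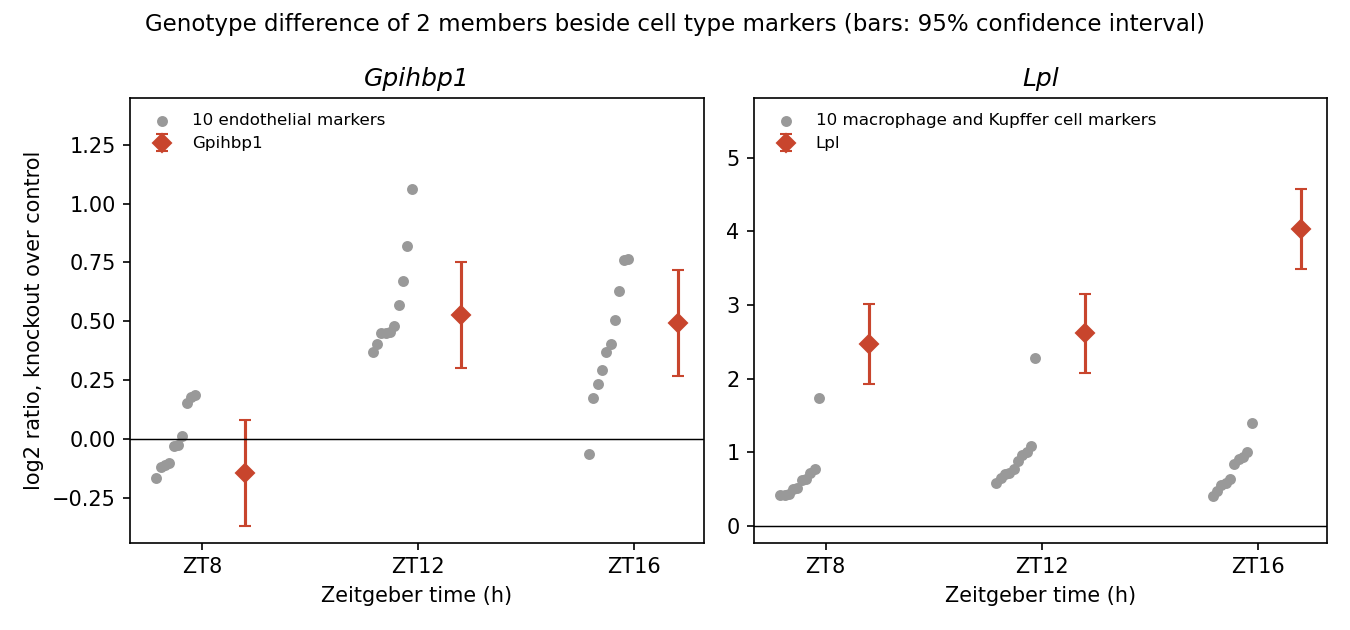
Log2 ratio of knockout over control at 3 times for Gpihbp1 beside 10 endothelial markers (left) and Lpl beside 10 macrophage and Kupffer cell markers (right); grey points are single markers, red diamonds the members with 95% confidence intervals. Gpihbp1 lies within the range of the markers at ZT12 and ZT16, and Lpl lies above all 10 markers at each time.

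Lmf1, the factor of the endoplasmic reticulum that Lpl, Lipc and Lipg need to fold, was lower in knockouts by a small amount at each time. It read 4.09 to 4.31 (median 4.25) in controls and 3.57 to 3.97 (median 3.72) in knockouts at ZT8. At ZT12 the values were 4.25 to 4.37 (median 4.32) and 3.51 to 3.87 (median 3.63), and at ZT16 they were 4.23 to 4.78 (median 4.34) and 3.56 to 3.74 (median 3.68). The groups were apart at each time, and the differences were -0.49 ± 0.07 (adjusted p = 4.70e-06), -0.65 ± 0.07 (3.28e-08) and -0.75 ± 0.07 (2.69e-09). The genotype effect at ZT16 minus that at ZT8 was -0.25 ± 0.11 (adjusted p = 0.14 in limma). Its other probe gave -0.48, -0.59 and -0.69, each called, and the groups of that probe overlapped at ZT8 and ZT16.

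**Figure D4:**
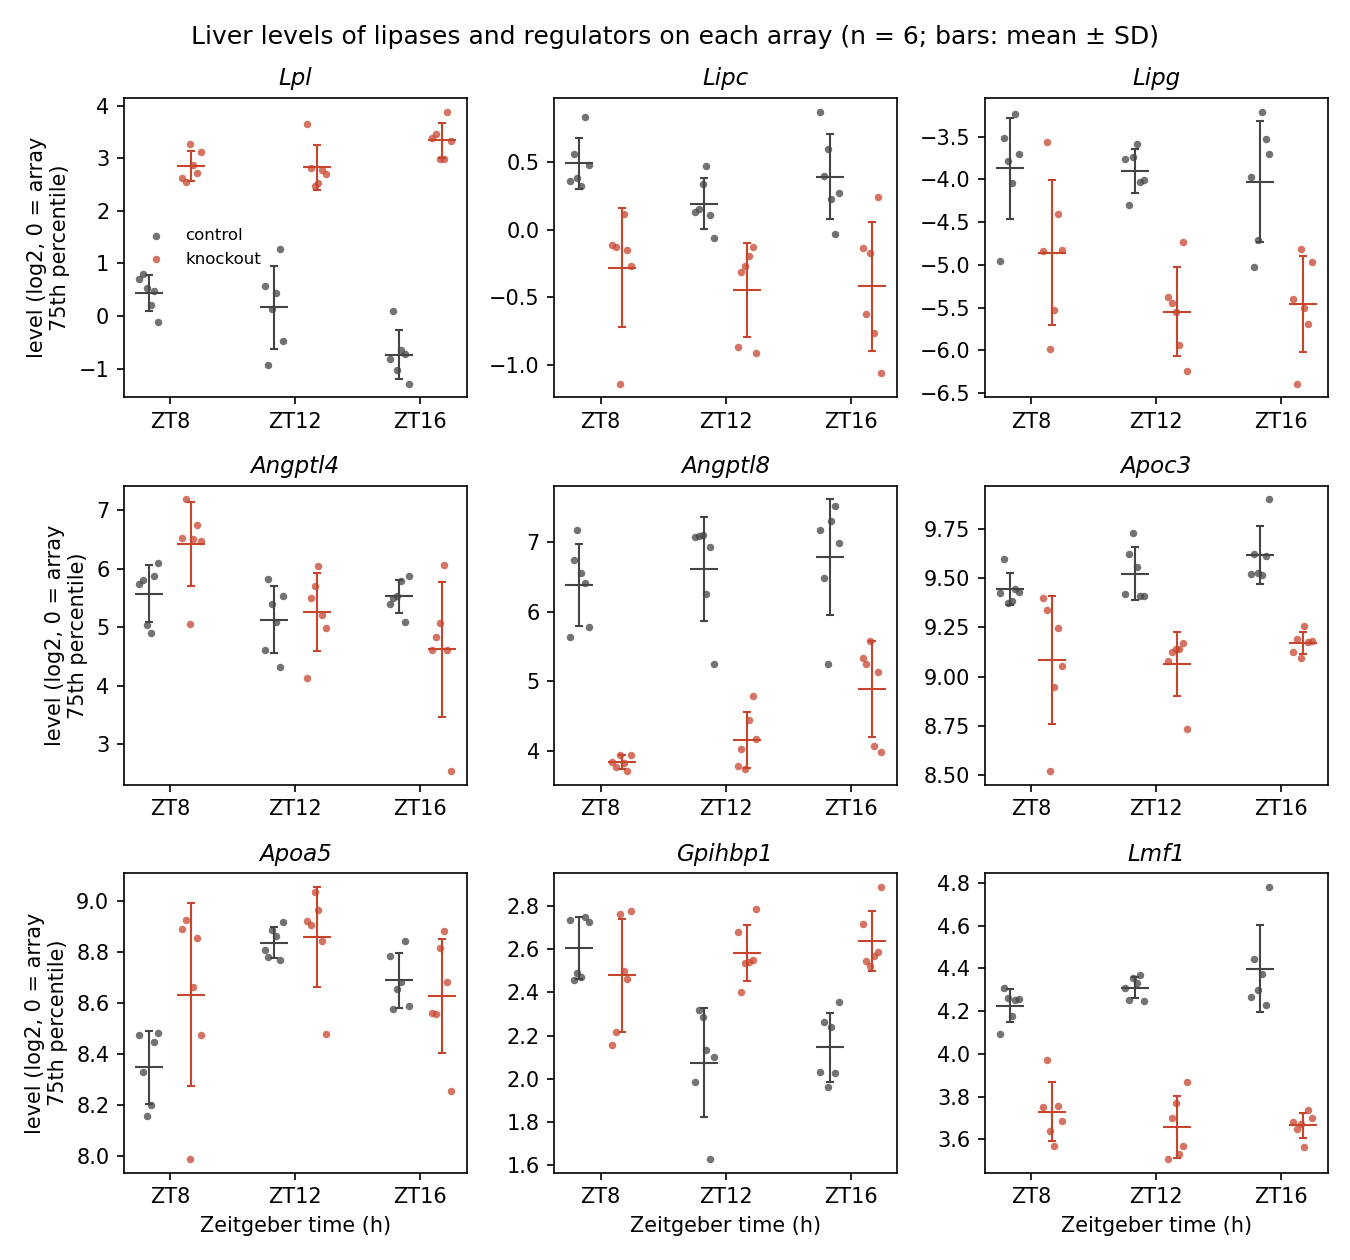
Level (log2, 0 = 75th percentile of the array) of the representing probe of each gene on each array by time; grey points are controls, red points knockouts, bars mean and SD of 6 arrays. Lpl (knockouts 2.47 to 3.89) and Lmf1 (knockouts 3.51 to 3.97) separate the genotypes at each time, and Angptl4 overlaps at each time.

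Groups of 6 arrays did not overlap between genotypes for 4 members at ZT8 (Lpl, Lipc, Angptl8 and Lmf1), 7 at ZT12 (all but Angptl4 and Apoa5) and 4 at ZT16 (Lpl, Apoc3, Gpihbp1 and Lmf1). Over all genes the shares were 15.5%, 21.4% and 19.3%. At the level of probes, 13, 14 and 15 of the 19 member probes were called, against 33.7%, 39.3% and 37.9% of all probes. All 19 had passed the filter on dim probes, the Lipg probes mainly through controls and the Lpl probe A_66_P123790 mainly through knockouts. The probe counts include these probes, whose calls follow in part from the filter. Of the 19 probes, 6 read Lpl, so the counts are not of separate genes.

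In controls 2 members were called from ZT8 to ZT12 (Apoa5 higher, Gpihbp1 lower), 0 from ZT12 to ZT16 and 3 from ZT8 to ZT16 (Apoa5 higher, Lpl and Gpihbp1 lower), where 14.8%, 3.63% and 26.6% of all genes were called. The rise of Apoa5 by ZT16 was 0.34 ± 0.12 (adjusted p = 0.040) and was not called under quantile normalization (0.21, 0.078), median centring (0.32, 0.084), without a filter (0.34, 0.072), in the authors' deposited table (0.23, 0.057) or without any 1 of 7 control arrays (0.051 to 0.103). In knockouts 0, 0 and 2 members were called (Angptl8 higher and Angptl4 lower from ZT8 to ZT16), against 13.2%, 12.6% and 28.9% of all genes. Without knockout replicate 3 of ZT8, 3 members were called lower from ZT8 to ZT12 in knockouts: Lipc by 0.47, Lipg by 1.06 and Angptl4 by 1.35 on the log2 scale. The genotype effect differed between ZT16 and ZT8 for 2 members, Lpl and Gpihbp1 (9.75% of all genes), and the same 2 passed the F test (8.46%).

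The order of the 6 group means, from high to low, placed the 3 knockout groups of Lpl above the 3 control groups, with neighbours overlapping except where the genotype changes. Angptl8, Apoc3, Lipc, Lipg and Lmf1 had the 3 control groups on top, and the groups on either side of the change of genotype overlapped for Lipc and Lipg and not for the other 3 genes. Groups further apart in the order did overlap for Angptl8 (controls at ZT16 down to 5.25, knockouts at ZT16 up to 5.58). They also did for Apoc3 (controls at ZT8 down to 9.37, knockouts at ZT8 up to 9.40). Of these 5 genes, Lmf1 alone had all control arrays above all knockout arrays. For Gpihbp1 the control group of ZT8 lay between knockout groups, at 2.61 ± 0.15 (SD, n = 6). The means of Apoa5 lay within a span of 0.51 and all neighbours in its order overlapped.

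Other genes of lipase control were read from lists chosen with earlier results of these data known. Of 9 other regulators, 5 were called at each time, with 2, 1 and 1 higher and 3, 4 and 4 lower. Of all genes tested, 35.5%, 42.3% and 40.0% were called in these comparisons. The list holds Sel1l, an adaptor of protein quality control that Lpl needs to leave the endoplasmic reticulum. Sel1l fell by 0.62, 0.84 and 0.70. The convertases Pcsk6 and Pcsk5, which can cut Lpl and Lipg, are in the list too. Pcsk6 fell by 0.40, 0.75 and 1.07, and Pcsk5 had ratios of 0.86, 0.57 and -0.03, the last not called (adjusted p = 0.869). The median log2 ratio of the list was -0.05, -0.20 and -0.16, and over all genes 0.01, -0.02 and 0.00.

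Of 6 listed relatives in the pancreatic lipase family, Pla1a alone passed the filter, a phospholipase specific for phosphatidylserine that fell by 0.35, 0.29 and 0.65. Of 9 genes for uptake of remnants and lipid, 5, 5 and 2 were called, with 2, 2 and 1 higher, beside 35.5%, 42.3% and 40.0% of all genes called. Scarb1, the receptor for high density lipoprotein, rose by 0.80, 0.87 and 0.95. Ndst1, an enzyme of heparan sulfate synthesis, had ratios of -0.37, -0.37 and -0.17, and Lsr, a lipolysis-stimulated receptor, 0.35, 0.26 and 0.03, both not called at ZT16 (adjusted p = 0.096 and 0.816).

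Of 11 transcription factors known to act on genes of this kind, 3, 7 and 6 were called, with 0, 1 and 0 higher. The shares of all genes called were 35.5%, 42.3% and 40.0%. Srebf1, an insulin-responsive activator of lipid synthesis, fell by 1.80, 1.48 and 1.12. Creb3l3, a hepatocyte factor for triglyceride genes, fell by 0.43, 0.97 and 0.89, and Foxo3 by 0.44, 0.30 and 0.83. Ppara, the fatty acid receptor, had ratios of -0.30, -0.93 and -0.89, not called at ZT8 (adjusted p = 0.113).

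For the 6 members called at each time, the genes most like them over the 6 group means were listed by root mean square difference, among 14488 genes well above background on all arrays. For Lpl these were Tbc1d30 (0.25), Igfbp2 (0.28) and DXBay18 (0.28), beside a span of 4.07 of its own means. For Angptl8, with a span of 2.94, they were Klk1b5 (0.18), 5730414N17Rik (0.19) and Tmem254a (0.22). For Lmf1, with a span of 0.74, they were Gcdh (0.02), Tst (0.04) and Aldh1l1 (0.04). Lipc was nearest to Prkce (0.07), Fam210b (0.07) and Slc40a1 (0.07), Lipg to Zfp787 (0.13), Cd1d1 (0.13) and Inhba (0.13), and Apoc3 to Sgpl1 (0.02), Mrps25 (0.02) and Ergic3 (0.03).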

How the data were processed

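Total liver RNA (200 ng) of each mouse was labelled with 1 dye, Cy3, and read on Agilent 8x60K mouse arrays (SurePrint G3, version v2), per the labels' protocols. Per the file headers, the deposited spot values are fluorescence intensity (Feature Extraction, version 10.10.1.1 per the submitters' processing notes), background subtracted and not normalized between arrays, and the deposited spot flags are other values of 0 or 1. The authors' deposited table holds log2 values and served as an alternative; how it was made is not given in the sources used here, and limma is named in the submitters' processing notes. Log2 processed signal minus the 75th percentile of each array was computed, control and outlier spots were left out and spots of a probe averaged. Probes well above background on at least 6 of 36 arrays were kept (34771), and 93 lacking a value on some array were dropped, leaving 34678 probes of 22892 genes, each gene represented by its brightest probe. limma 3.58.1 in R 4.3.3 fitted the 6 groups with wash batch (3 batches, from the labels) as a fixed effect, with 28 residual degrees of freedom and a threshold of 0.05. The array files give no counts, so precision rests on 6 arrays per group, which may share technical steps. Exact permutation tests were two-sided. The fit was tested on simulated data. Replicate numbers were checked for pairing: same-numbered arrays correlated from -0.34 to 0.20 over 90 pairs, so the numbers were not taken to pair samples.

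The 9 members, the further lists and the alternatives were chosen with earlier results of these data known. Named are all members and their probes, Insr, up to 4 genes of each further list with the smallest p, and for members called at all 3 times the 3 genes with the most similar group means; Kdr, Stab2 and Adipoq were named after their values were seen. Alternatives covered background correction, normalization, filters, wash batch, slide, replicate number, array weights, variance prior, input table, probe choice and leaving out each array. Probe positions are on build mm9 per the file headers. Promoters are on GRCm38.p6 and were not mixed with them. Some genes of the further lists are counted but not reported here by name.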

Additional observations from a re-analysis of the deposited data

Results flagged for a closer look

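Among the 9 members in 6 groups (54 groups of 6 arrays), 7 had 1 array whose gap to the next, over the range of the group, passed Dixon's limit at the 95% level, which chance passes in about 1 in 20 groups. Replicate 3 of the knockouts at ZT8 was low for Angptl4 (5.05, others 6.48 to 7.19) and for Lipc (-1.14, others -0.27 to 0.12). Replicate 6 of the knockouts at ZT12 was low for Apoa5 (8.48, others 8.84 to 9.03) and for Apoc3 (8.74, others 9.08 to 9.17). Apoc3 was high in control replicate 2 at ZT8 (9.60, others 9.37 to 9.45) and in control replicate 6 at ZT16 (9.90, others 9.52 to 9.62). Lpl was high in knockout replicate 1 at ZT12 (3.66, others 2.47 to 2.82).

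The genotype effect differed between times for 2 members in limma's interaction term: that of Lpl was 1.57 larger at ZT16 than at ZT8 (adjusted p = 0.0061) and that of Gpihbp1 0.64 larger (adjusted p = 0.0077).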

How the results depend on the processing

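Over the members' genotype differences, 9 of 1326 recomputed values lost a call and kept their sign, 7 gained one and 10 changed sign. Of the 10, 9 were values not called in either fit (Angptl4 at ZT12, Apoa5 at ZT12 and ZT16), and 1 was called in the main fit only. This was the Gpihbp1 difference at ZT12, -0.041 with the endothelial marker mean subtracted (adjusted exact permutation p = 0.654), an alternative chosen after seeing the data. Over their time and interaction effects, 15 of 3511 values lost a call (Apoa5 in controls and Angptl8 in knockouts, both from ZT8 to ZT16) and 43 gained one; 46 changed sign, none of them called in either fit. The cause of the changes was not tested. From ZT12 to ZT16 in controls, 1 member (Lpl) in place of 0 was called with only probes well above background on all arrays and with a variance trend, and 491 (no filter) or 327 (only the groups compared) of all genes in place of 830. From ZT8 to ZT12 in knockouts, 1 member (Angptl4) in place of 0 was called without the wash batch, with slide as a random block, with array weights and in the authors' deposited table, and 614 in place of 3030 genes with only the groups compared. From ZT12 to ZT16 in knockouts, 1 member (Apoc3) in place of 0 was called in the authors' deposited table, and 1672 in place of 2878 genes with only the groups compared. From ZT8 to ZT16 in knockouts that setting called 4316 in place of 6607 genes. The genotype effect at ZT16 minus ZT8 was called for 4 members in place of 2 and 4011 in place of 2233 genes with array weights. The F test called 1275 (no filter) or 3686 (array weights) in place of 1937 genes.

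Leaving out each array in turn gave 5 to 7 members called by genotype at ZT8 (7257 to 8501 genes), 7 to 7 at ZT12 (8900 to 10224) and 7 to 8 at ZT16 (8200 to 9814). In controls it gave 2 to 2 from ZT8 to ZT12 (2724 to 3807), 0 to 1 from ZT12 to ZT16 (434 to 1047) and 2 to 4 from ZT8 to ZT16 (5414 to 6529). In knockouts it gave 0 to 3 (2117 to 4314), 0 to 0 (2210 to 3246) and 1 to 3 (5842 to 7498), with 3 from ZT8 to ZT12 without replicate 3 of ZT8. The interaction gave 2 to 4 (1811 to 3250) and the F test 2 to 4 (1447 to 2987), the last of each without that array.

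With the replicate number as a block, 6, 7 and 7 members and 8143, 9454 and 9011 genes were called by genotype at ZT8, ZT12 and ZT16; the numbers do not pair the samples. From ZT8 to ZT16 in controls the block called 4 members in place of 3. Signal over background limits Lipg and the dimmer Lpl probes.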
